A study of Mus musculus with 2 samples.

Results

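The enzymes that carry betaine to sarcosine, together with the methionine cycle enzymes next to them, were described in 46C mouse embryonic stem cells, a line with a green fluorescent protein reporter in the Sox1 locus. The 10 genes, Bhmt, Bhmt2, Dmgdh, Gnmt, Mat2a, Mat2b, Ahcy, Mtr, Mtrr and Cbs, were taken by symbol from the 14500 symbols of the table, and all 10 were listed. The gene set was drawn up with the 2 libraries' levels of these genes known, so their differences are given as a description and without a test. Cells transfected with a Gbx2 vector (the library titled PB-Gbx2) were compared with cells that received the empty vector (the library titled PB). Each group has 1 library, so no value has a replicate error. Both cultures were 46C cells at passage 21 to 24, grown in medium with serum and LIF on plates coated with gelatin. Neither a clone nor a promoter of the vector is named in the labels. The source names in the labels contradict the titles, giving the library titled PB as Gbx2-overexpressing cells and the other as the control. Groups follow the titles, which match the column names of the table, and every direction would turn round if the source names were right. The level of Gbx2 was higher in the library titled PB-Gbx2, which goes with the titles and against the source names.

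Betaine, made from choline, gives a methyl group to homocysteine and so returns it to methionine, in a reaction carried out by Bhmt. The dimethylglycine left over is demethylated in mitochondria to sarcosine by Dmgdh, and sarcosine is then turned into glycine. Homocysteine can also be methylated from folate by methionine synthase (Mtr), which needs cobalamin. Methionine adenosyltransferase makes S-adenosylmethionine, the methyl donor for DNA, histones and many small molecules. The betaine route is best known from liver and kidney, and Bhmt activity has also been described in the mouse blastocyst.

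Gbx2 itself had a normalized level of 1178 in the PB-Gbx2 library, against 345 in the PB library. The authors deposited each level normalized and rounded to a whole number. The sorted levels of both libraries are identical in all 14501 rows, with a sum of 16528899 and a median of 388 in each, so any difference in overall distribution had been removed. Read counts and depth are unknown. The pluripotency factor Pou5f1 stood at 10597 in PB-Gbx2 and 9446 in PB, and Sox2 at 10302 in PB-Gbx2 and 9894 in PB. All 12 pluripotency markers had a row, 4 of them (Nanog, Zfp42, Klf4 and Fbxo15) at least 2-fold higher in PB-Gbx2 and none 2-fold lower. Among all genes, 5.14% passed 2-fold on the higher side and 5.26% on the lower side, without matching for level. Those 4 markers lay above the middle 95% of ratios among genes of similar level, and the other markers lay inside it. The summed level of the 12 markers was 157820 in PB-Gbx2 and 120603 in PB. In bulk RNA, fewer cells of a type and less RNA per cell cannot be told apart.

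In the mouse genome Bhmt, Bhmt2 and Dmgdh lie side by side on chromosome 13. Bhmt2 and Dmgdh start back to back, with 133 bases between the RefSeq start sites, and Bhmt lies beyond Bhmt2 on the same strand as it. The region before Bhmt and the gap shared by Bhmt2 and Dmgdh are shown because these 3 genes had the largest differences among the 10. Both sequences come from RefSeq on build GRCm38.p6, whereas the submitters' processing notes name mm9. RefSeq promoter windows were found for all 10 genes. The first sequence is the 250 bases before the Bhmt start, chr13:93637759-93638008 on the minus strand, with AAGGTCA in capitals. The second is the gap, chr13:93674303-93674435 on the plus strand, with the GC box GGGCGG in capitals (read here from the other strand).
Bhmt upstream: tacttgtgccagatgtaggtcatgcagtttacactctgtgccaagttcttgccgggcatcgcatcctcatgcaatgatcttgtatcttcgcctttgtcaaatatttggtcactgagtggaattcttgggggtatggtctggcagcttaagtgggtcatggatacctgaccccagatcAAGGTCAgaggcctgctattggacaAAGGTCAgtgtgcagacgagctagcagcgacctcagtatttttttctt
Bhmt2-Dmgdh gap: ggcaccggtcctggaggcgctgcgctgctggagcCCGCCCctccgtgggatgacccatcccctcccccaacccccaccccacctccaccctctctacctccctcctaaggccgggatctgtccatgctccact

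AAGGTCA is the core of the site read by orphan nuclear receptors such as Esrrb, a pluripotency factor. It was searched on both strands and occurred 2 times before Bhmt, 73 and 48 bases from the start, without overlap with a match of any other motif searched. Of 32851 RefSeq promoter windows of 250 bases, 4.08% held it at least once and 0.128% held it 2 or more times. Nothing is read from these shares, because Bhmt was chosen with its ratio known and several motifs were searched. None of the other 9 genes had it in its window. The homeodomain core TAATTA, which 4.84% of windows hold, was not among the letters of any of the 10 genes' windows. GGGCGG occurred 1 time in the gap, and 27.5% of windows of that length held it at least once. The E-box CACGTG (6.02% of windows) was seen before Cbs alone, and the TATA box TATAAA (12.4%) before Mat2a alone. The CCAAT box, which 33.8% of windows hold, occurred 1 time before Bhmt, 56 bases from the start, and also before other genes of the 10. These matches describe the letters and not binding. Esrrb itself stood at 9456 in PB-Gbx2 and 7508 in PB, a ratio of 1.26, and its part was not tested.

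The windows differed in base composition. GC content was 48.0% before Bhmt, 74.0% before Bhmt2 and 64.8% before Dmgdh, beside a median of 52.4% over all windows. The ratio of observed to expected CG dinucleotides was 0.263 before Gnmt, 0.350 before Bhmt, 0.618 before Bhmt2 and 0.645 before Dmgdh. For the other 6 genes it ran from 0.522 before Ahcy to 1.06 before Mat2a, and the median of all windows was 0.373. The 4 genes that differed at least 2-fold between the libraries thus had ratios of 0.263 to 0.645, a range that the Ahcy window also falls in.

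The steps from betaine to sarcosine held the largest differences. Bhmt, the cytosolic enzyme that methylates homocysteine from betaine, had a level of 572 in the PB-Gbx2 library and 28 in the PB library. That is a ratio of 20.4, or 4.30 as a log2 ratio with 1 added to each level. In the PB library 11.0% of genes had a lower level than Bhmt, and in the PB-Gbx2 library 59.0% did. Bhmt thus lay among the low genes of the empty-vector cells and above the middle of the list in the Gbx2-vector cells.

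Dmgdh, the mitochondrial flavoenzyme that takes the next step, had a level of 508 in PB-Gbx2 and 45 in PB, a ratio of 11.3 and a log2 ratio of 3.47. The share of genes below it was 56.2% in PB-Gbx2 and 17.1% in PB. Bhmt2, a relative of Bhmt that methylates homocysteine from S-methylmethionine rather than betaine, had a level of 222 in PB-Gbx2 and 34 in PB, a ratio of 6.53 and a log2 ratio of 2.67. All 3 genes were low in the PB library and lay between 222 and 572 in the PB-Gbx2 library.

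Ratios scatter more at low levels, so each gene was set beside the 725 genes in its own twentieth of mean level. The middle 95% of log2 ratios there ran from -1.14 to 1.02 for Bhmt and Dmgdh, which share a twentieth, and from -1.24 to 1.39 for Bhmt2. Bhmt had the highest ratio of its twentieth, Dmgdh came next after it, and Bhmt2 had the highest of its own. The 3 genes lay above the middle 95% of their twentieths, as did 2.61% of all genes, and none of the 10 lay below it, where 2.62% of all genes lay. Ranked over the 10941 genes with a level of 100 or more in PB-Gbx2 or PB, Bhmt came 1st by log2 ratio, Dmgdh 6th and Bhmt2 12th. The genes next to Bhmt in that order were Msc (156 in PB-Gbx2 and 8 in PB), Wnt5a (170 in PB-Gbx2 and 10 in PB) and Sox21 (658 in PB-Gbx2 and 44 in PB). Dmgdh stood after Wnt5a, Sox21 and Gm11543, and before Ly6a (120 in PB-Gbx2 and 11 in PB), Kdr (226 in PB-Gbx2 and 24 in PB) and Tmem92 (164 in PB-Gbx2 and 20 in PB). These ranks describe the same values that chose the genes, and Bhmt, Dmgdh and Bhmt2 reached a level of 100 through PB-Gbx2 alone. Likeness here means closeness of 1 ratio between 2 libraries, which is all the design offers.

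Bhmt and Bhmt2 are close relatives, and reads could in principle be split between them. Their coding sequences in GENCODE M21 were identical at 75.6% of 1088 aligned bases. Of the 2441 different stretches of 50 bases in Bhmt transcripts, 10 also occur in Bhmt2 transcripts. Summed over both genes, the level was 794 in PB-Gbx2 and 62 in PB, a ratio of 12.8. Unlisted transcripts from the opposite strand overlap Bhmt (Gm15622), Dmgdh (AW495222), Ahcy (Gm45609), Mat2a (Particl) and Gnmt (Gm26904, annotated as a long intergenic RNA), and an unlisted pseudogene, Gm15620, lies within Dmgdh on the other strand. The strand was not stated in the sources used here, so reads of such partners could not be told apart from those of the enzyme.

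In the authors' deposited table, whose test rests on 1 library per group, the adjusted p is 6.79e-08 for Bhmt, 2.86e-05 for Dmgdh and 0.143 for Bhmt2. The authors' deposited table gives 0.145% of its rows an adjusted p under 0.05 with a higher level in PB-Gbx2. The authors' deposited table lists an adjusted p of 1 for Gnmt, Mat2a, Mat2b, Ahcy, Mtr, Mtrr and Cbs.

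**Figure D1:**
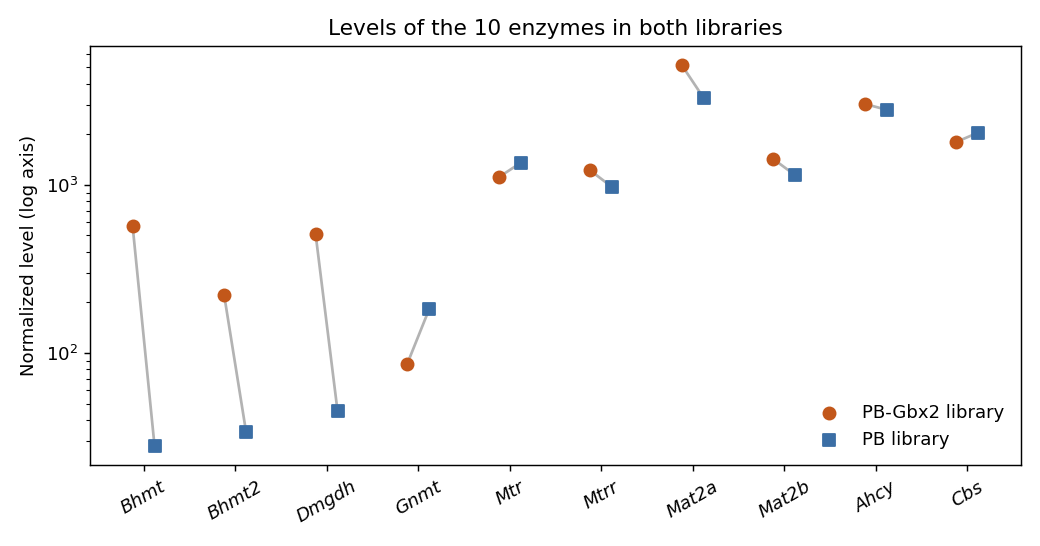
Normalized level (log axis) of each of the 10 enzymes in the PB-Gbx2 library (circles) and the PB library (squares), with a line joining the 2 values of a gene. Bhmt, Bhmt2 and Dmgdh lie at 222 to 572 in PB-Gbx2 and at 28 to 45 in PB, while the 6 enzymes from Mtr to Cbs lie close together.

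Gnmt, the glycine methyltransferase that makes sarcosine from glycine and uses up S-adenosylmethionine, went the other way. Its level was 86 in PB-Gbx2 and 182 in PB, 2.12-fold lower, with a log2 ratio of -1.07. This lies inside the middle 95% of its twentieth, -1.24 to 1.39, where 29 of the 725 genes had a ratio as low or lower. Dmgdh and Gnmt, whose reactions both yield sarcosine, thus stood on opposite sides.

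Of the 10 genes, 3 were at least 2-fold higher in PB-Gbx2 and 1 was at least 2-fold lower. Over all genes the share past 2-fold was 5.14% on the higher side and 5.26% on the lower side, and nothing is read from the comparison because the genes were chosen on these values. The median log2 ratio of the 10 was 0.33, beside 0 over all genes.

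The folate route of homocysteine methylation differed little. Mtr, the cobalamin-dependent methionine synthase, had a level of 1109 in PB-Gbx2 and 1351 in PB, 1.22-fold lower. Mtrr, the reductase that keeps Mtr active, had a level of 1219 in PB-Gbx2 and 969 in PB, a ratio of 1.26. Both log2 ratios, -0.28 and 0.33, lie inside the middle 95% of genes of similar level. Mtrr and its back-to-back neighbour Fastkd3, a mitochondrial RNA-binding protein, start 40 bases apart. Fastkd3 stood at 486 in PB-Gbx2 and 343 in PB, a log2 ratio of 0.50.

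Mat2a, the catalytic subunit of the methionine adenosyltransferase found outside the adult liver, had a level of 5159 in PB-Gbx2 and 3282 in PB, a ratio of 1.57. Of the 725 genes in its twentieth, 24 had a log2 ratio at or above its 0.65, and the middle 95% ended at 0.73. Its regulatory subunit Mat2b had a level of 1426 in PB-Gbx2 and 1140 in PB, a ratio of 1.25. The liver form Mat1a, which is no member of the set, was low in both, at 36 in PB-Gbx2 and 32 in PB. Per kb of its longest transcript, Mat2a had 1523 in PB-Gbx2 and 969 in PB, while Mat1a had 10.4 in PB-Gbx2 and 9.23 in PB.

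Ahcy, which hydrolyses S-adenosylhomocysteine, the product of methyl transfer, had a level of 3029 in PB-Gbx2 and 2794 in PB, a ratio of 1.08. Cbs, which withdraws homocysteine toward cysteine, had a level of 1798 in PB-Gbx2 and 2046 in PB, 1.14-fold lower. These were the smallest differences among the 10, with log2 ratios of 0.12 and -0.19.

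**Figure D2:**
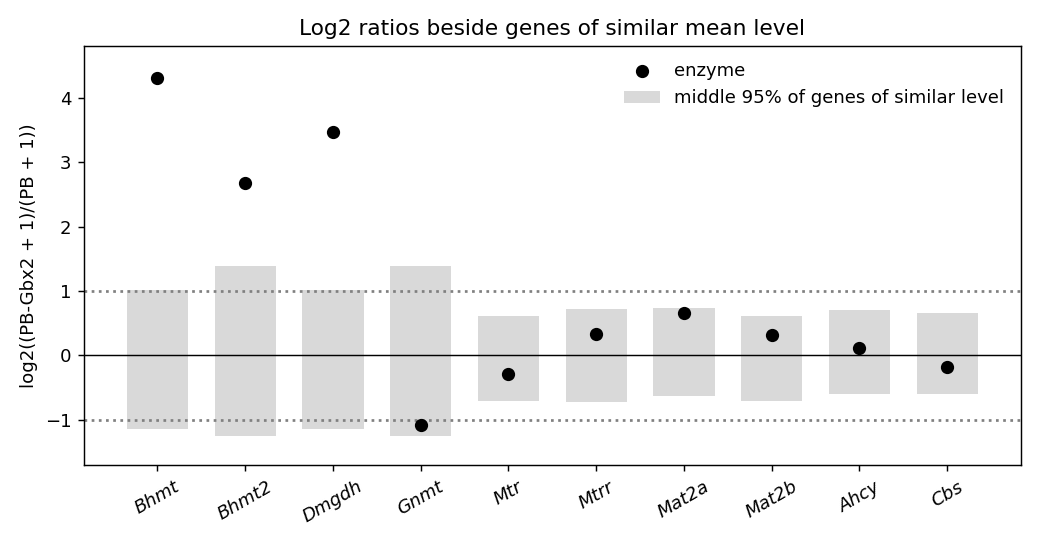
Log2 ratio of PB-Gbx2 over PB (1 added to each level) for each enzyme (points) beside the middle 95% of ratios among genes of its own twentieth of mean level (grey bars). Dotted lines mark 2-fold. Bhmt, Bhmt2 and Dmgdh lie above their bars, and the other 7 enzymes lie inside theirs.

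Ordered by level per kb of the longest transcript, Mat2a (1523), Ahcy (1191) and Mat2b (695) led in the PB-Gbx2 library, and Ahcy (1099), Mat2a (969) and Mat2b (555) in the PB library. At the low end of the PB library were Dmgdh (15.0), Bhmt2 (13.8) and Bhmt (11.2), in that order. In the PB-Gbx2 library Bhmt stood 6th with 230 per kb, Dmgdh 7th with 170 and Bhmt2 9th with 90.0, with Mtr (134) 8th and Gnmt (83.1) 10th. Bhmt thus lay above Mtr per kb in PB-Gbx2 and below it in PB, where Mtr had 163. When coding length was used instead, the neighbours in this order changed places. Bhmt then remained above Mtr in PB-Gbx2 (468 and 295 per coding kb) and below it in PB (22.9 and 359 per coding kb). Neighbouring places carry no error estimate.

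The genes around Bhmt, Bhmt2 and Dmgdh were read beside them. Of the 10 protein-coding genes on each side in RefSeq order, 15 were listed in all, with a median log2 ratio of 0.01. On the far side of Bhmt the nearest listed genes were Jmy, a regulator of actin and p53, with 554 in PB-Gbx2 and 472 in PB, and Homer1, a postsynaptic scaffold, with 298 in PB-Gbx2 and 413 in PB. On the far side of Dmgdh were Arsb, a lysosomal sulfatase, with 20 in PB-Gbx2 and 8 in PB, and Lhfpl2, with 130 in PB-Gbx2 and 81 in PB. Arsb and Spz1 (20 in PB-Gbx2 and 3 in PB) were at least 2-fold higher, both at low levels, and none was 2-fold lower. The shares over all genes were 5.14% higher and 5.26% lower, and the neighbours were not matched to them for level. The 12 neighbours that reached a level of 100 had log2 ratios from -0.47 to 0.68.

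**Figure D3:**
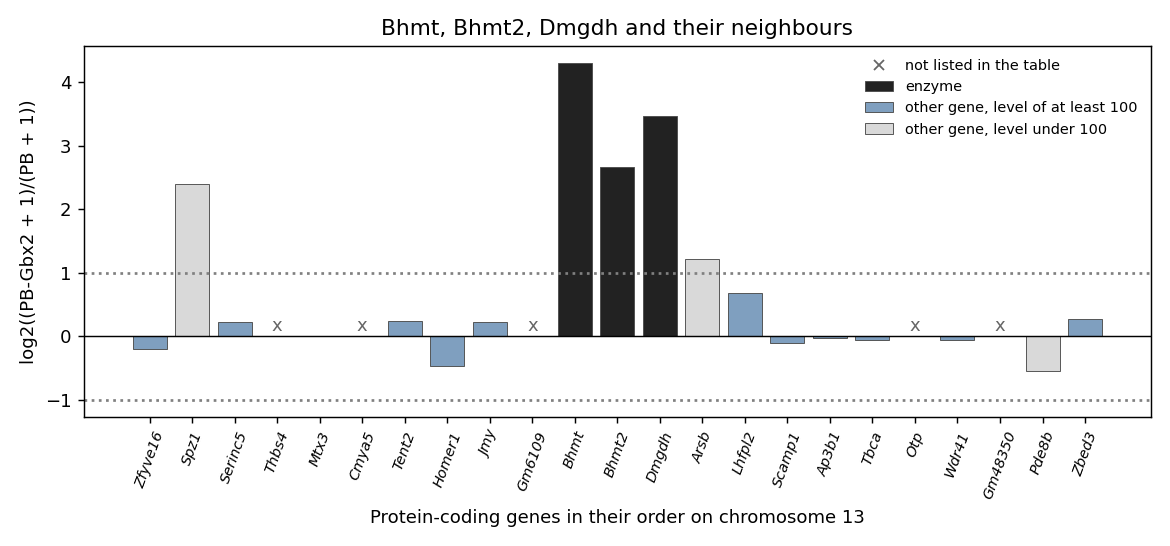
Log2 ratio of PB-Gbx2 over PB for Bhmt, Bhmt2, Dmgdh (black) and the 10 protein-coding genes on each side, in their order on chromosome 13. Blue bars reached a level of 100, grey bars did not, and a cross marks a gene without a value. The 12 blue bars lie between -0.47 and 0.68, beside 2.67 to 4.30 for the 3 enzymes.

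Genes that start back to back were then collected over the genome. In 606 pairs, both genes had a level in the table and their RefSeq starts lay within 1000 bases of each other on opposite strands. In 10 of these pairs at least 1 gene was 2-fold higher in PB-Gbx2, and in 1 pair, Bhmt2 and Dmgdh, both genes were. The other 9 pairs had the partner within 2-fold. Examples are Zfp319 with a log2 ratio of 1.78 beside Usb1 with 0.00, and Mocs3 with 1.60 beside Dpm1 with -0.47. Counted per gene over all genes, 5.14% were at least 2-fold higher, and the pairs were not matched to them for level. Bhmt2 and Dmgdh were chosen with these ratios known, and the pairs were collected after seeing them. Nothing is therefore read from their being the 1 pair with both genes higher.

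**Figure D4:**
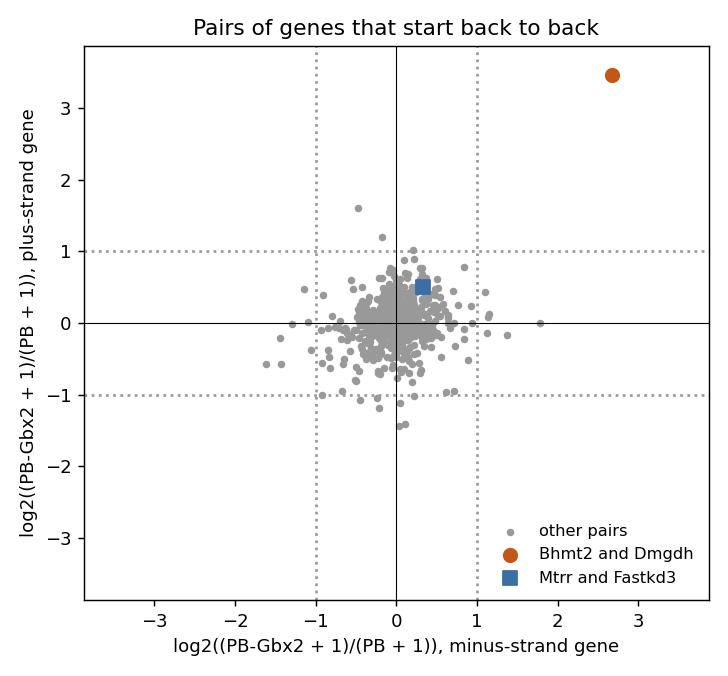
Log2 ratio of PB-Gbx2 over PB for 606 pairs of genes that start within 1000 bases of each other on opposite strands, the minus-strand gene on the x axis and the plus-strand gene on the y axis. Dotted lines mark 2-fold. Bhmt2 and Dmgdh (circle), chosen with these ratios known, lie alone in the upper right corner, and Mtrr and Fastkd3 (square) lie near 0.

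The listed genes of betaine supply were mostly within 2-fold. Of 14 genes of choline oxidation and of choline, betaine and carnitine transport, 7 were listed, 6 of them below 0, with a median log2 ratio of -0.45. Slc6a12, a betaine carrier, was 2.75-fold lower at 8 in PB-Gbx2 and 22 in PB, inside the middle 95% of genes of similar level, and no other listed member passed 2-fold. Slc44a3, of the choline transporter-like family, had 59 in PB-Gbx2 and 98 in PB, and Aldh7a1, which oxidises betaine aldehyde, 1964 in PB-Gbx2 and 2180 in PB. Slc44a1, a choline transporter, was the member above 0, with 2238 in PB-Gbx2 and 1788 in PB. Chdh, the choline dehydrogenase, was not listed.

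After dimethylglycine, Pipox, a peroxisomal sarcosine oxidase, had 1427 in PB-Gbx2 and 1568 in PB. Sardh, the mitochondrial sarcosine dehydrogenase, was not listed. The electron transfer flavoprotein that takes electrons from Dmgdh was higher in ratio for each of its parts, though below 2-fold. Etfa had 1713 in PB-Gbx2 and 1358 in PB, Etfb 87 in PB-Gbx2 and 44 in PB, and the reductase Etfdh 756 in PB-Gbx2 and 591 in PB. Pdpr, a relative of Dmgdh that regulates pyruvate dehydrogenase phosphatase, had 458 in PB-Gbx2 and 788 in PB. None of the 7 listed genes of this list passed 2-fold, and its median was -0.14.

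Around the methionine cycle, 0 of 17 listed genes passed 2-fold and the median was 0.07. Pcmt1, a protein repair methyltransferase, had 464 in PB-Gbx2 and 324 in PB, a log2 ratio of 0.52. Cobalamin handling had 11 listed genes, none past 2-fold, with a median of 0.10 and Mcee (345 in PB-Gbx2 and 222 in PB) and Lmbrd1 (190 in PB-Gbx2 and 132 in PB) furthest out. In methionine salvage and polyamine synthesis, spermine synthase (Sms) was 2.02-fold lower, with 1474 in PB-Gbx2 and 2976 in PB. The other 15 listed genes of that list lay within 2-fold, with Adi1 at 1200 in PB-Gbx2 and 907 in PB.

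In the use of homocysteine for cysteine and taurine, Cdo1, the cysteine dioxygenase, was 2.20-fold higher, with 222 in PB-Gbx2 and 101 in PB. The other 12 listed genes lay within 2-fold, among them Csad (1447 in PB-Gbx2 and 1832 in PB). Of 17 genes of phosphatidylcholine and related phospholipid synthesis, none passed 2-fold and the median was 0. Cept1 (519 in PB-Gbx2 and 289 in PB) and Ptdss1 (611 in PB-Gbx2 and 400 in PB) were furthest out. Among 23 listed folate genes the median was 0.06. The mitochondrial Aldh1l2 was 2.67-fold lower, with 203 in PB-Gbx2 and 542 in PB, and Mthfd2 had 586 in PB-Gbx2 and 1092 in PB. Tdh, the threonine dehydrogenase on which mouse embryonic stem cells draw for glycine, had 4759 in PB-Gbx2 and 2692 in PB. Over the 109 different genes of these 8 lists, 0.917% passed 2-fold on the higher side and 2.75% on the lower side. The shares over all genes were 5.14% and 5.26%, but these take in low genes, whose ratios scatter more. With a minimum level of 100, 269 of 10941 genes were higher and 259 lower, as were 1 and 2 genes of the lists. The lists were not matched for level, so nothing is read from the difference.

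**Figure D5:**
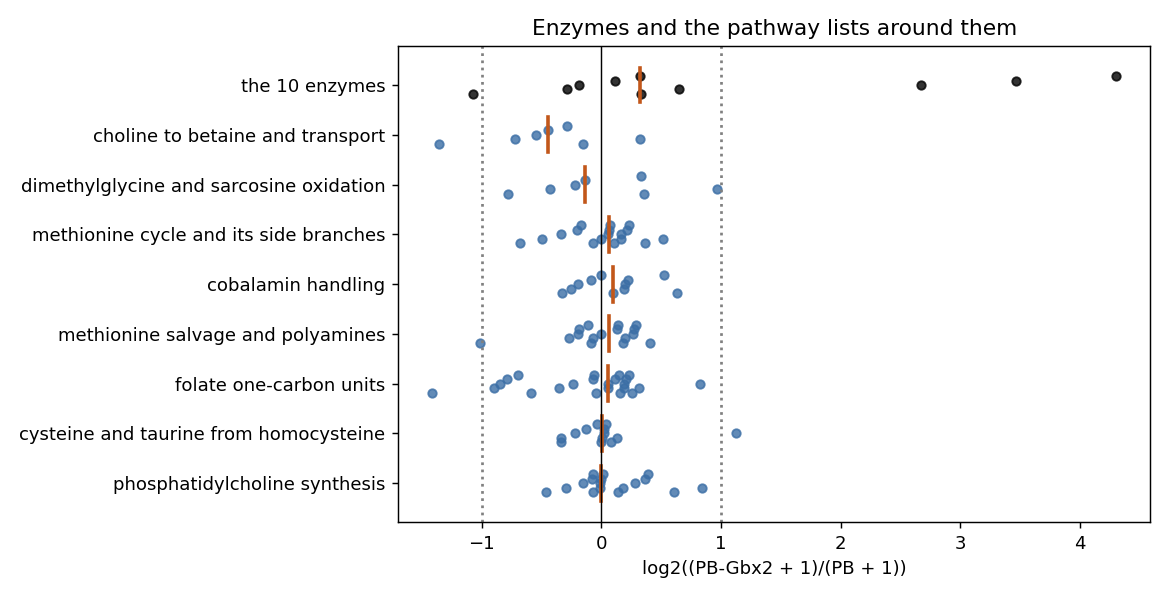
Log2 ratio of PB-Gbx2 over PB for every listed gene of the 10 enzymes (black) and of 8 lists of the pathways around them (blue), with the median of each as an orange bar. Dotted lines mark 2-fold. Bhmt, Dmgdh and Bhmt2 lie at 2.67 or more, while the 109 other genes lie between -1.41 and 1.13.

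Because Bhmt and Dmgdh are known as liver and kidney genes, markers of those tissues were read beside them. Of 22 hepatocyte markers 13 were listed, 7 of them above 0 and 5 below, with a median log2 ratio of 0.17, and none passed 2-fold. Their summed level was 8765 in PB-Gbx2 and 6794 in PB, most of it from Ass1 (7184 in PB-Gbx2 and 5166 in PB), a urea cycle enzyme that many cell types express. Albumin (Alb) had 270 in PB-Gbx2 and 282 in PB, transthyretin (Ttr) 24 in PB-Gbx2 and 18 in PB, and the nuclear receptor Hnf4a 174 in PB-Gbx2 and 99 in PB. Of 14 proximal tubule markers 4 were listed, with a summed level of 587 in PB-Gbx2 and 744 in PB, and Slc5a1 was higher at 51 in PB-Gbx2 and 14 in PB.

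Markers of early endoderm were read in the same way. Of 10 definitive endoderm markers 6 were listed, all above 0, with a summed level of 651 in PB-Gbx2 and 357 in PB. Sox17, Foxa2, Cer1 and Gsc were not listed. Foxa1 (24 in PB-Gbx2 and 4 in PB), Gata6 (45 in PB-Gbx2 and 18 in PB) and Cxcr4 (101 in PB-Gbx2 and 45 in PB) were at least 2-fold higher, each inside the middle 95% of genes of similar level. Of 13 extraembryonic endoderm markers 9 were listed, 7 of them above 0, with a summed level of 10507 in PB-Gbx2 and 9355 in PB. Gata6 alone of these was 2-fold higher, and Gata4 and Gata6 are on both endoderm lists. The part of such cells, of hepatocyte-like cells or of the higher pluripotency markers in the levels of Bhmt and Dmgdh was not tested. Trophectoderm markers (8 of 12 listed) summed to 3189 in PB-Gbx2 and 3014 in PB, most of it in PB-Gbx2 from Tfap2c (2439 in PB-Gbx2 and 1441 in PB). Of these, Krt7, Krt8, Krt18, Krt19 and Bmp8b were at least 2-fold lower and Esx1 at least 2-fold higher. Krt7, Krt8, Krt18 and Krt19 lay below the middle 95% of genes of similar level, Krt18 only just, and Bmp8b and Esx1 lay inside it. Fibroblast markers (9 of 14 listed) summed to 73704 in PB-Gbx2 and 31298 in PB, nearly all of it Fn1, with Fn1 and Thbs1 higher and Col1a1 and S100a6 lower.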

How the data were processed

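RNA was sequenced from 1 library of each vector, made with a TruSeq RNA kit from Trizol RNA per the labels' protocols. Reads were handled with STAR and build mm9, per the submitters' processing notes. The sources used here do not name the versions, annotation, counting tool or strand setting. Each deposited level is treated as a score, since the authors normalized and rounded it, and equal sorted values in both libraries are what quantile normalization leaves. Also deposited are the authors' ratio and log2 ratio of PB over PB-Gbx2, and their p-value with its adjustment. All columns belong to these 2 libraries.

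Log2 ratios put PB-Gbx2 over PB, each as level + 1, which understates changes of low genes. A gene was called at a ratio of 2-fold if PB-Gbx2 or PB had a level of 1 or more. The 2 rows sharing a symbol were summed. No test was made and no p-value computed, as each group has 1 library. The genes, lists and tests were chosen with earlier results of these data known. Named were all 10 enzymes and Gbx2, the nearest 2 listed neighbours on each side and those past 2-fold, and of each pathway list the members past 2-fold at a level of at least 20 or the 2 furthest out. Other members of lists were named for their role after their values were seen. A gene that this rule covers is not reported here. Likeness was the order of log2 ratios over genes with a level of 100 or more. Neighbours and promoters came from RefSeq (GRCm38.p6), matched by symbol or a single synonym, and transcript lengths, coding sequences and overlaps from GENCODE M21. The back-to-back pairs, the runs of 3 adjacent genes and the base composition were added after seeing the data. The motif search was made with the levels of the 10 genes known. Alternatives were a pseudocount of 0.1 or 5, a threshold of 1.5-fold or 3-fold, no minimum level or one of 100, a trimmed mean or housekeeping genes as the scale, and coding length. The calling step was tested on simulated data. Python 3.11.15, numpy 2.4.6, pandas 2.3.3 and Biopython 1.88 were used.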

Additional observations from a re-analysis of the deposited data

How the results depend on the processing

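Of 158 results under alternative settings, 139 stayed within 1.5 times the reported value. Both rescalings moved log2 ratios by at most 1.58e-05, since the libraries already share one distribution, and so say nothing about stability. Leaving out the minimum level changed no result, since every gene already reached it, and says nothing either. The results under these settings are counted among the 139. With a 1.5-fold threshold, 1684 genes were higher and 1770 lower in PB-Gbx2, and in the pathway lists 6 were higher and 11 lower. With a 3-fold threshold the counts over all genes were 265 higher and 236 lower, no pathway list gene passed (0 higher and 0 lower), 1 neighbour (Spz1) was higher, and 0 of the 10 enzymes were lower, since Gnmt no longer passed. With a minimum level of 100 there were 269 higher and 259 lower genes and 0 higher neighbours, and with a pseudocount of 5 there was 1 higher neighbour. Against the middle 95% at the same level, a setting chosen after seeing the data, 0 enzymes were lower. The count of 3 higher enzymes held under every setting but the 1.5-fold threshold, where Mat2a joined to make 4. With Bhmt and Bhmt2 summed, also chosen after seeing the data, their log2 ratio was 3.66. With coding length, 5 of the 10 enzymes kept their place in the order by level per kb in PB-Gbx2 and 1 in PB. No paired analysis was possible because there is a single library per vector, which also means that none can be left out.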

Other observations

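Runs of adjacent genes were counted over the genome as a description. The 12893 listed protein-coding genes with a place in RefSeq order form 12851 overlapping runs of 3 neighbours on the same chromosome. In 16 of these runs all 3 genes were at least 2-fold higher in PB-Gbx2. Ranked by the lowest log2 ratio of the 3, the run of Bhmt, Bhmt2 and Dmgdh came first at 2.67. Nothing is read from that place, because the 3 genes were chosen with these ratios known. The next were runs of related genes on chromosome 11 (Tmem92, Gm11546 and AA623943, at 2.19) and chromosome 7 (Usp17le, Usp17lb and Usp17la, at 2.07). The Usp17l genes are copies of nearly the same sequence, and how their reads were divided is uncertain. The run of Bhmt2, Dmgdh and Arsb, which overlaps the first, was also among the 16 with a lowest ratio of 1.22, that of Arsb at 20 in PB-Gbx2 and 8 in PB. Runs with Dlk1, Rtl1 and Dio3 on chromosome 12 (1.08) and with P4htm, Arih2 and Slc25a20 on chromosome 9 (1.27) were others of them.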
